A study of Mus musculus with 12 samples.

Results

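Fibro-adipogenic progenitors and the fibroblasts derived from them are recognized by a small set of surface proteins and transcription factors, and 10 genes of this kind were followed: Pdgfra, Pdgfrb, Thy1, Ly6a, Cd34, Dpp4, Pi16, Hic1, Osr1 and Tcf7l2. They were chosen by gene name, and all 10 were listed in the 3 deposited tables, out of 28995 genes listed in any of them. The RNA came from fibroblasts isolated from the hindlimb muscle of 3-day-old wild-type C57BL/10 mice, purified by adherence and used at passage 2 after a switch to medium with charcoal-stripped serum, which removes steroids. The 3 groups were treated for 48 hours with 1 µM aldosterone, the agonist of the mineralocorticoid receptor, with 1 µM spironolactone, its antagonist, or with the vehicle (DMSO). Each group had 4 libraries, and each name joins its sample number and its biological replicate number, so that library 2_1 carried sample number 2 and biological replicate number 1. Per the labels the cells came from 2 mice with 2 replicate plates for each mouse and treatment, but which number stands for the mouse is not stated. By these labels each group holds 2 plates of each mouse. P-values therefore measure the spread between these libraries, plates of the same mouse among them, and not the spread between mice.

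Fibro-adipogenic progenitors are the resident mesenchymal cells of skeletal muscle. They carry the receptor for platelet-derived growth factor encoded by Pdgfra together with the surface antigen SCA-1, encoded by Ly6a, and they give rise to matrix-producing fibroblasts and to intramuscular adipocytes. Pi16 and Dpp4 mark a progenitor-like fibroblast state found around blood vessels and in fascia of many organs, while Hic1, Osr1 and Tcf7l2 encode transcription factors used to trace muscle connective tissue cells, and Thy1, Cd34 and Pdgfrb are surface markers shared with other mesenchymal or vascular cells.

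Reads on genes ranged from 19136923 to 30219185 per library, with a median of 23833379.5. The cultures were checked against marker lists. All 7 fibroblast markers (Col1a1, Col1a2, Col3a1, Dcn, Lum, Fbln2 and Vim) were detected, and their summed level, in reads scaled to the library's total (CPM), was 50710 to 54960 with vehicle, 43730 to 48130 with aldosterone and 47510 to 52810 with spironolactone. The 5 myogenic markers listed in all tables summed to 2.73 to 6.23 CPM, and the other two, Pax7 and Myf5, were not listed in all tables. Macrophage and leukocyte markers summed to 8.01 to 12.2 CPM over 4 genes, with Adgre1 and Itgam not listed in all tables, and Schwann and glial markers to 1.47 to 4.02 CPM over 3 genes. Endothelial markers (5 genes) summed to 19.6 to 22.5 CPM with vehicle or spironolactone and to 28.3 to 30.5 CPM with aldosterone. Tek gave most of the level, at means of 18.8 CPM with vehicle and 21.6 CPM with aldosterone, and Kdr, which encodes the VEGF receptor 2, gave most of the difference, at 1.91 and 6.87 CPM (log2 fold change 1.88, adjusted P = 0.00183 in limma). Pecam1 and Cdh5 averaged 0.278 and 0.401 CPM with vehicle. Adipocyte markers (3 genes) summed to 1.24 to 5.76 CPM without and 4.65 to 9.37 CPM with aldosterone. Tenocyte markers (3 genes) summed to 177.6 to 208.6 CPM without and 129.9 to 145.3 CPM with aldosterone, and mural markers (6 genes) to 412.3 to 538.1 CPM without and 310.4 to 460.2 CPM with it. Cspg4 gave most of the mural level, at means of 387 CPM with vehicle, 377 CPM with spironolactone and 304 CPM with aldosterone. Against vehicle, limma called 1 endothelial and 1 adipocyte marker higher, 2 tenocyte markers lower and 1 fibroblast marker in each direction. When blocked by sample number it called 2 endothelial and 2 adipocyte markers higher, 3 tenocyte and 3 mural markers lower, and 2 fibroblast markers higher and 5 lower. Of all genes, 5.68% rose and 4.74% fell without the block, and 8.68% rose and 8.02% fell with it. The part of these marker levels in the results below was not tested, and in RNA from whole cultures fewer cells of a type and less RNA per cell cannot be told apart.

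The promoters of 3 identity genes are shown because Pi16 had the highest fitted fold change with aldosterone, Dpp4 the lowest, and Pdgfra the lowest adjusted P-value. They are RefSeq promoter windows of build GRCm38.p6, from 250 bases before to 50 bases after the gene start, read 5′ to 3′ on the strand of the gene. Capitals mark the hexamer of steroid receptors, AGAACA or its reverse complement TGTTCT, and the TATA box, TATAAA. The windows are chr17:29318632-29318931 (plus strand) for Pi16, chr2:62412182-62412481 (minus strand) for Dpp4 and chr5:75152001-75152300 (plus strand) for Pdgfra.
Pi16: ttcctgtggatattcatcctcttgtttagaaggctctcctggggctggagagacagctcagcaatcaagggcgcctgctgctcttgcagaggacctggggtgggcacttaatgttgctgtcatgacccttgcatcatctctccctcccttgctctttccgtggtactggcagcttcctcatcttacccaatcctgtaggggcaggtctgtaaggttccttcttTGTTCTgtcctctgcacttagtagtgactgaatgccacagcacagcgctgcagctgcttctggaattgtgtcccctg
Dpp4: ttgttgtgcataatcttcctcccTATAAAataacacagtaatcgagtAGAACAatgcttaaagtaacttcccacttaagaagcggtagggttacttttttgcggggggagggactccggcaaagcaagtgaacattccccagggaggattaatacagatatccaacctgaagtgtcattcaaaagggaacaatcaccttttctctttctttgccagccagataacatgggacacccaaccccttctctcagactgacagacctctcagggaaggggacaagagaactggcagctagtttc
Pdgfra: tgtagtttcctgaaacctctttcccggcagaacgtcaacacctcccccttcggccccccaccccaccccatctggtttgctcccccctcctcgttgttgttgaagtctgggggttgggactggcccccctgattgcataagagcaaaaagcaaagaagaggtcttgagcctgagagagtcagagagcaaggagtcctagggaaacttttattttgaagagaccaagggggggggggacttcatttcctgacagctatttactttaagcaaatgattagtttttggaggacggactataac
The hexamer of Pi16 lay 27 bases before the start, that of Dpp4 203 bases before it, and the TATA box letters of Dpp4 227 bases before it. The Pdgfra window held neither motif. Searched on both strands, the hexamer was in 19% and the TATA box in 13.6% of the 32851 promoters in the table, so a match is a description of these letters and not a binding site. The receptor palindrome, which is GNACA and its reverse complement TGTNC separated by 3 free bases, was in 0.475% of all promoters and in none of the 8 promoter windows of identity genes. Those 8 windows belonged to 6 of the 10 genes, with a pair of windows each for Hic1 and Tcf7l2. Besides Pi16 and Dpp4, the second window of Tcf7l2 held a hexamer, 11 bases before that start. Pdgfrb, Thy1, Ly6a and Osr1 had no entry in the table.

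The first question was which identity genes these fibroblasts transcribe without added steroid and at what level. Levels were compared between genes as reads scaled to gene length and to the library's total (RPKM). With vehicle, Ly6a was the highest of the 10 genes at 369.8 ± 53 RPKM (SD, n = 4), the 59th of 25133 genes listed in all tables. Pdgfrb followed at 80.1 ± 6 RPKM, Thy1 at 34.7 ± 5.65 RPKM and Osr1 at 29.5 ± 2.42 RPKM. Pdgfra stood at 13.3 ± 0.916 RPKM, Cd34 at 9.98 ± 2.2 RPKM, Hic1 at 7.93 ± 0.849 RPKM and Tcf7l2 at 4.003 ± 0.362 RPKM. Pi16 and Dpp4 were low, at 0.747 ± 0.108 and 0.323 ± 0.0883 RPKM, the 12716th and 14949th gene in order. Among neighbors in this order, the vehicle libraries of Thy1 and Osr1 overlapped, as did those of Cd34 and Hic1, while the other neighbors did not overlap. Ly6a remained first and Dpp4 last with aldosterone and with spironolactone.

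**Figure D1:**
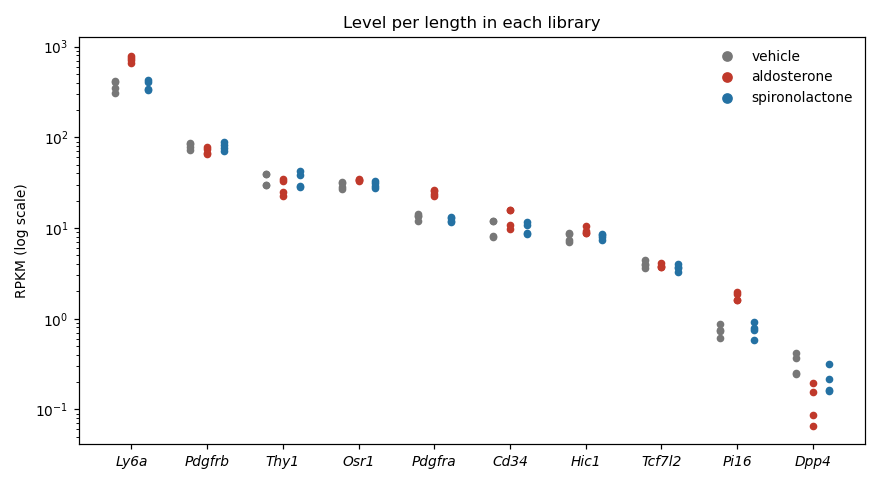
Level of each identity gene in each of the 12 libraries, as RPKM on a log axis, with genes ordered by their mean with vehicle and colors for the 3 treatments. Ly6a lies near 370 RPKM with vehicle and near 727 RPKM with aldosterone, and Dpp4 lies lowest in all 3 treatments.

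The second question was which identity genes differ after 48 hours with aldosterone. Transcripts of Pdgfra, Ly6a and Pi16 were 1.88 to 2.43 times as high with aldosterone as with vehicle, Hic1 and Osr1 were 1.21 and 1.18 times as high, and Dpp4 was lower. A gene was called at an adjusted P-value of at most 0.05 in limma fitted over all genes of the table, and by this rule 5 of the 10 genes rose and 1 fell. Of all 27319 genes of that table, 5.68% rose and 4.74% fell, and of the 11195 genes that averaged 100 normalized counts or more, as 9 of the 10 identity genes did, 11.8% rose and 9.84% fell. With the study's added limit of a log2 fold change of at least 1, Ly6a and Pi16 rose, against 1.4% of all genes, and Dpp4 fell, against 0.666%. For the counts of called genes in related gene lists against vehicle, the shares of all genes are these 5.68% and 4.74%. With the sample number as a block they are 8.68% and 8.02%. The share at 100 normalized counts or more was taken only for this comparison without a block. Shares given below are over genes of any level. The genes and lists were chosen with earlier results of these data known, so the shares are a description and not a test. Fold changes below come from the table of each pair of treatments, on the scale of log2(normalized count + 1). The counts of single libraries are on a scale common to all 12 libraries.

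**Figure D2:**
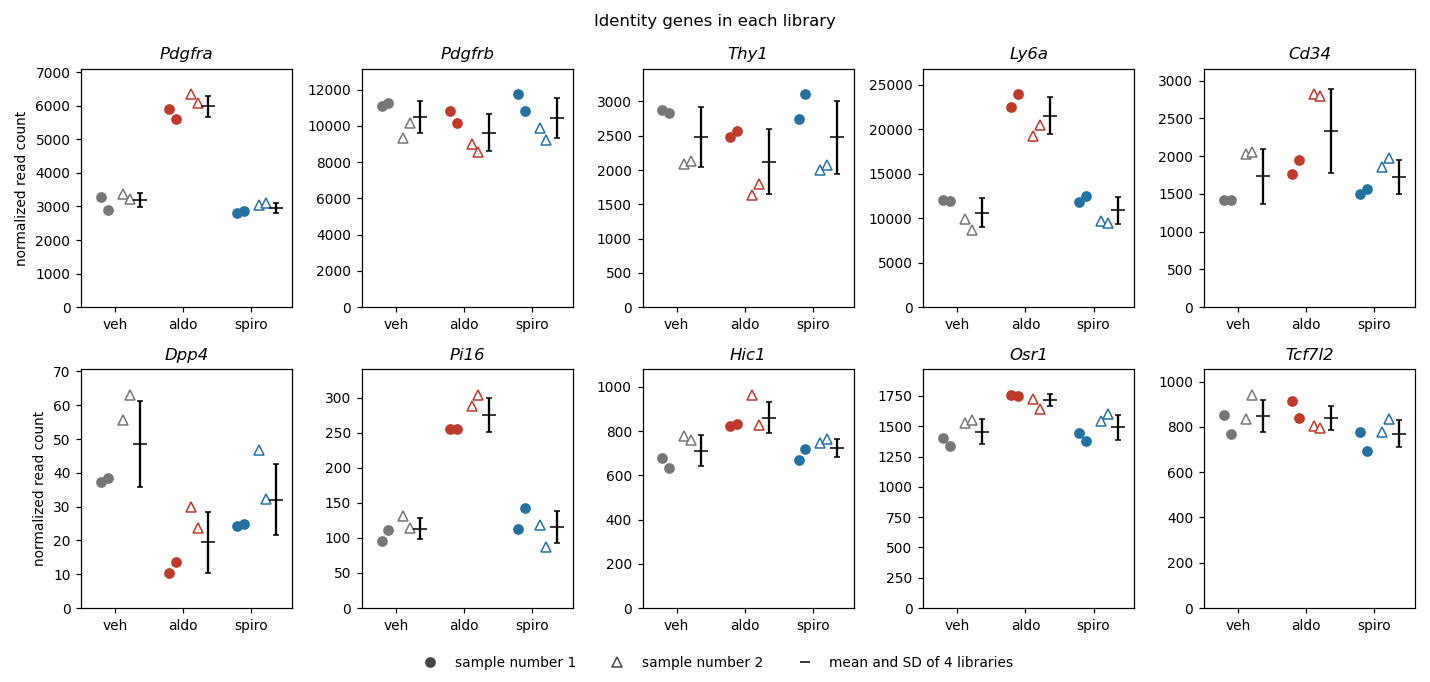
Normalized read counts of the 10 identity genes in each library (veh, vehicle; aldo, aldosterone; spiro, spironolactone), with circles for sample number 1, triangles for sample number 2 and a bar for the mean and SD of 4 libraries. The aldosterone libraries of Pdgfra, from 5599 to 6344, lie above all other libraries of that gene, and the triangles of Thy1 lie below its circles.

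Of the PDGF receptors, Pdgfra rose and Pdgfrb was not called. Pdgfra (chromosome 5, 75312953 to 75358876 in the files), which encodes the alpha receptor that defines the progenitors, had normalized counts of 3268, 2888, 3364 and 3223 with vehicle, of 5911, 5599, 6344 and 6079 with aldosterone, and of 2810, 2866, 3031 and 3111 with spironolactone. The aldosterone libraries did not overlap with either other group. Pdgfra was 1.88-fold higher with aldosterone than with vehicle (log2 fold change 0.91, SE 0.060, adjusted P = 2.93e-08 in limma). Within sample number 1 the log2 fold change was 0.90 and within sample number 2 it was 0.92.

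Pdgfrb (chromosome 18, 61178222 to 61218133), the beta receptor, which pericytes also carry, had normalized counts of 11110, 11240, 9353 and 10150 with vehicle and of 10830, 10160, 8986 and 8561 with aldosterone. These groups overlapped, and the log2 fold change was -0.12 (95% interval -0.29 to 0.042, adjusted P = 0.427 in limma). When the fit took the sample number as a block, the same difference was called lower (adjusted P = 0.0321), and it was -0.09 within sample number 1 and -0.15 within sample number 2. The ratio of Pdgfra to Pdgfrb per length was 0.161, 0.140, 0.197 and 0.173 in the vehicle libraries and 0.298, 0.301, 0.386 and 0.388 in the aldosterone libraries. Its mean was 0.168 ± 0.0235 with vehicle and 0.343 ± 0.0503 with aldosterone (exact permutation test, two-sided, P = 0.0286, which is the smallest P that 4 against 4 libraries allow). With spironolactone it was 0.157 ± 0.024 (exact permutation test against vehicle, P = 0.514).

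Of the genes for the PDGF ligands and a related receptor-like protein, 1 of 5 fell and 0 rose with aldosterone, where the median log2 fold change was 0.08 against -0.01 over all genes of the table. The gene that fell was Pdgfrl, which resembles the ligand-binding part of the receptors, with a log2 fold change of -0.38 (adjusted P = 0.00205 in limma). Pdgfa and Pdgfc, which encode ligands of the alpha receptor, had log2 fold changes of 0.08 and 0.15 (adjusted P = 0.457 and 0.255 in limma). Pdgfd, a ligand of the beta receptor, had 0.30 (adjusted P = 0.111). The ligand gene Pdgfb had low means of 11.3 normalized counts with vehicle and 5.62 with aldosterone. Its log2 fold change was -1.10 (adjusted P = 0.202 in limma). When blocked by sample number, Pdgfd was called higher (adjusted P = 0.00102), so that 1 of the 5 rose and 1 fell.

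Ly6a (chromosome 15, 74866726 to 74869880, minus strand) encodes SCA-1, the surface antigen used to sort the progenitors. Its normalized counts were 12050, 11950, 9880 and 8690 with vehicle, 22480, 23940, 19220 and 20500 with aldosterone, and 11820, 12530, 9716 and 9461 with spironolactone. No aldosterone library overlapped with the other groups, and in each treatment both libraries of sample number 2 were below those of sample number 1. Ly6a was 2.03-fold higher with aldosterone than with vehicle (log2 fold change 1.02, SE 0.096, adjusted P = 1.65e-06 in limma).

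Of 9 other genes of the LY6 family, which encode small surface or secreted proteins, 7 were listed for this comparison, and 3 of them rose and 0 fell (median log2 fold change 0.22, against -0.01 over all genes). Ly6c1, expressed on endothelial and some progenitor cells, rose by 1.22 on the log2 scale from a mean of 3290 to 7632 normalized counts (adjusted P = 3.95e-08). Ly6e rose by 0.22 (adjusted P = 0.0116). Ly6c2, close in sequence to Ly6c1, was called from a mean of 0.244 normalized counts with vehicle to 6.34 with aldosterone, too few counts for a fold change. How reads that fit several LY6 genes were assigned is not given in the sources used here, so the split between these relatives is uncertain.

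Pi16 (chromosome 17, 29536654 to 29549567) encodes peptidase inhibitor 16, a marker of the vessel-associated progenitor state. Its normalized counts were 94.98, 111.6, 132 and 114.1 with vehicle, 255.2, 254.7, 287.8 and 303.9 with aldosterone, and 112.9, 142.1, 119 and 87.33 with spironolactone. The aldosterone libraries lay above all others without overlap. Pi16 was 2.43-fold higher than with vehicle (log2 fold change 1.28, SE 0.121, adjusted P = 1.77e-06 in limma), the largest rise of the 10 genes, and rested on 105 to 113 reads per vehicle library and 195 to 383 per aldosterone library.

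Relatives of Pi16 in the CAP superfamily of secreted proteins were listed for 6 genes, and limma called 2 higher and 0 lower, with 4 at an unadjusted P under 0.05 (median log2 fold change -0.21, against -0.01 over all genes). Crispld2 had a log2 fold change of 1.23 (adjusted P = 1.11e-07) and Crispld1 one of 1.01 (adjusted P = 0.0165). Glipr2 had a log2 fold change of -0.19 (adjusted P = 0.0854 in limma) and was called lower by edgeR (adjusted P = 0.0473) and by limma when blocked by sample number (adjusted P = 0.0199), but not by DESeq2 (adjusted P = 0.053). Glipr1 had one of -0.24 (adjusted P = 0.449), and the other two averaged 1.48 and 0.478 normalized counts with vehicle and 0 with aldosterone. Among 11205 genes that averaged 100 normalized counts or more, the profiles over 12 libraries closest to that of Pi16 were those of Myo1h, Crispld2 and Vegfc, with root mean square differences of 0.159, 0.171 and 0.181 on the centered log2 scale. Vegfc, a growth factor of lymphatic vessels, had means of 136.8 with vehicle, 291 with aldosterone and 141.9 with spironolactone.

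Dpp4 (chromosome 2, 62160417 to 62242575, minus strand) encodes a surface peptidase that marks the same progenitor state, and it went the other way. Its normalized counts were 37.31, 38.51, 55.53 and 63.03 with vehicle, 10.47, 13.66, 29.81 and 23.80 with aldosterone, and 24.26, 24.75, 46.77 and 32.12 with spironolactone. The aldosterone libraries lay below all vehicle libraries but overlapped with the spironolactone libraries. The fitted level with aldosterone was 0.391 of that with vehicle (log2 fold change -1.35, SE 0.332, adjusted P = 0.0133 in limma). Dpp4 was measured with 39 to 58 reads per vehicle library and 8 to 32 per aldosterone library. Its call was kept when aldosterone library 2_1 was left out (adjusted P = 0.0347) and was lost without each of the other 7 libraries (adjusted P from 0.0657 without aldosterone 2_2 to 0.124 without vehicle 2_2), while the log2 fold change stayed between -1.59 and -1.11.

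Of 7 genes for relatives of Dpp4 and other prolyl peptidases, 6 were listed, and 2 rose and 0 fell (median log2 fold change 0.05, against -0.01 over all genes). These were Dpp7, a lysosomal peptidase, with 0.35 (adjusted P = 0.0146), and Dpp6, a potassium channel subunit, from a mean of 2.06 to 9.94 normalized counts (adjusted P = 0.0378). Fap, the closest relative of Dpp4 and a marker of activated fibroblasts, had means of 32.1 with vehicle and 32.8 with aldosterone (log2 fold change 0.09, adjusted P = 0.913), and differed between sample numbers as Dpp4 did, with means of 23.3 in number 1 and 40.5 in number 2 (log2 difference 0.80, adjusted P = 0.00856). The profiles closest to that of Dpp4 were those of Ndnf, Dlg2 and AW551984, with root mean square differences of 0.259, 0.264 and 0.303.

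Hic1 and Osr1, transcription factors of the progenitors, differed little but without overlap. Hic1 (chromosome 11, 75055391 to 75060345, minus strand), linked to the quiescence of muscle progenitors, had normalized counts of 679.3, 630.9, 779.9 and 757.4 with vehicle and of 823.2, 831.3, 963.1 and 826.8 with aldosterone. Its log2 fold change was 0.28 (SE 0.080, adjusted P = 0.0371 in limma). The call was lost when any single library was left out, with adjusted P from 0.0628 without vehicle 2_1 to 0.176 without vehicle 1_1 and log2 fold changes from 0.22 to 0.32.

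Osr1 (chromosome 12, 9620116 to 9631500), which marks embryonic and activated connective tissue progenitors, had normalized counts of 1404, 1333, 1529 and 1553 with vehicle and of 1758, 1746, 1725 and 1646 with aldosterone. Its log2 fold change was 0.24 (SE 0.061, adjusted P = 0.0166 in limma), and it was 0.35 within sample number 1 and 0.13 within sample number 2. The interaction of treatment and sample number was -0.22 (adjusted P = 0.895). The call was kept without aldosterone 2_2, vehicle 2_1 or vehicle 2_2. It was lost without aldosterone 1_1, aldosterone 1_2, aldosterone 2_1, vehicle 1_1 or vehicle 1_2, where the adjusted P ranged from 0.0596 to 0.0777. Of the paralogs Osr2, Hic2, Podxl and Podxl2, which include those of CD34, 0 of 4 were called against vehicle by limma, with or without the block, or by DESeq2. At an unadjusted P under 0.05 there were 0 in limma and 1, Podxl, in DESeq2, and edgeR, whose filter left out Podxl, called 0. In limma the log2 fold changes were -0.06 for Osr2, -0.10 for Hic2 and -0.03 for Podxl2. Podxl, a sialomucin related to CD34, had low means of 5.73 normalized counts with vehicle and 14.4 with aldosterone (log2 fold change 1.06, adjusted P = 0.255). Against spironolactone, with a mean of 3.41, it had a log2 fold change of 1.69 (adjusted P = 0.0552 in limma), and it was called higher by DESeq2 (adjusted P = 0.0152) and by limma when blocked by sample number (adjusted P = 0.0204).

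Tcf7l2 (chromosome 19, 55730252 to 55922086), a transcription factor at the end of the WNT pathway that marks muscle connective tissue fibroblasts, had means of 848.8 ± 71.8 normalized counts with vehicle and 838.1 ± 53.3 with aldosterone. The groups overlapped and the log2 fold change was -0.02 (95% interval -0.17 to 0.14, adjusted P = 0.934 in limma). It was 0.11 within sample number 1 and -0.14 within sample number 2. The interaction of treatment and sample number was -0.25 (adjusted P = 0.895 in limma). Of 13 TCF/LEF partners and feedback targets of WNT signaling, 12 were listed, and 1 rose and 2 fell (median log2 fold change 0.05, against -0.01 over all genes). Ctnnb1, which encodes the partner beta-catenin, rose by 0.28 (adjusted P = 0.00183). Lgr5, a receptor for R-spondins and a WNT target, had a log2 fold change of -1.08 with means of 4037 and 1913 normalized counts (adjusted P = 1.96e-09), and Nkd1, a WNT inhibitor, had one of -0.32 (adjusted P = 0.0027). When blocked by sample number, 2 of the 12 rose and 3 fell, the added genes being the WNT inhibitors Nkd2, with a log2 fold change of 0.50 (adjusted P = 6.67e-06), and Apcdd1, with one of -0.30 (adjusted P = 0.0314).

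The libraries of Cd34 and Thy1 separated by sample number within each treatment. Cd34 (chromosome 1, 194621127 to 194643587), a sialomucin of progenitor and endothelial cells, had normalized counts of 1421, 1416, 2032 and 2057 with vehicle and of 1769, 1950, 2821 and 2798 with aldosterone. The treatment groups overlapped, but within each sample number both aldosterone libraries lay above both vehicle libraries. The log2 fold change was 0.42 (95% interval 0.10 to 0.74), with an adjusted P of 0.0991 in limma without a block and of 2.38e-08 when blocked by sample number.

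Thy1 (chromosome 9, 43954681 to 43959876), which encodes the fibroblast surface glycoprotein CD90, had normalized counts of 2880, 2834, 2087 and 2127 with vehicle and of 2477, 2572, 1637 and 1796 with aldosterone. Within each sample number both aldosterone libraries lay below both vehicle libraries. The log2 fold change was -0.24 (95% interval -0.53 to 0.052), with an adjusted P of 0.367 in limma without a block and of 0.00026 when blocked by sample number. With that block, 6 of the 10 genes rose and 3 fell, against 8.68% and 8.02% of all genes, and Tcf7l2 was the only one of the 10 without a call.

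**Figure D3:**
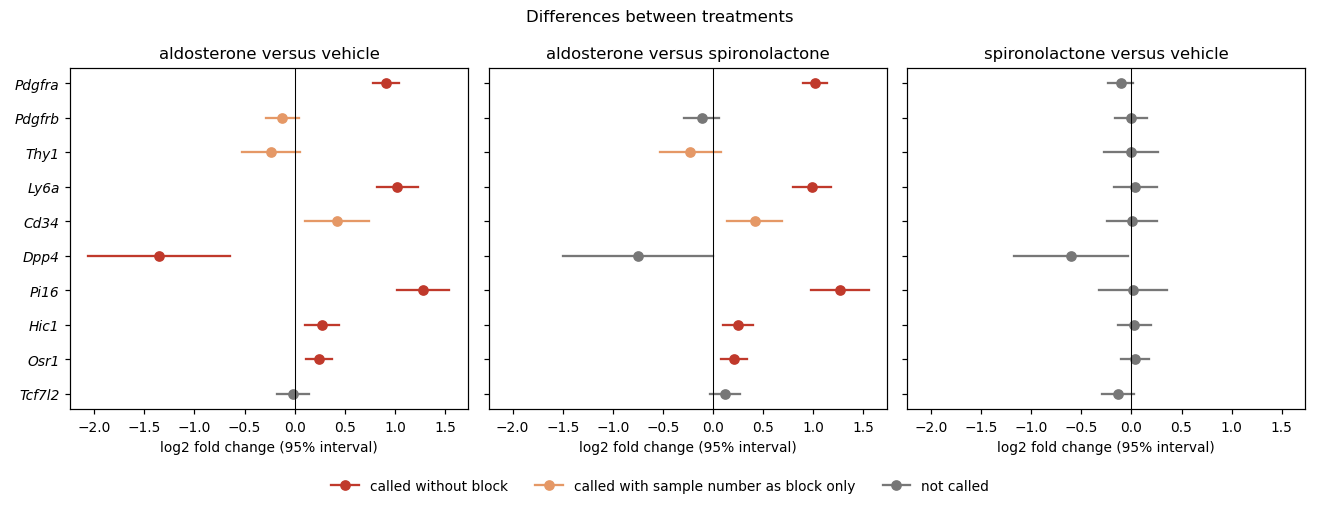
Log2 fold changes of the 10 identity genes (points) with 95% intervals from limma without a block (lines) in the 3 comparisons of treatments, colored by whether the gene was called. Pi16, Ly6a and Pdgfra lie near 1 in both comparisons with aldosterone, Dpp4 lies at -1.35 against vehicle, and no gene is called between spironolactone and vehicle.

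The comparison of agonist with antagonist used the same aldosterone libraries, so it is not independent of the one with vehicle. With aldosterone, 5 of the 10 genes were higher than with spironolactone, against 4.93% of all 27631 genes, and 0 were lower by limma, edgeR or DESeq2, against 3.96% of all genes in limma. Pdgfra was 2.02-fold higher (log2 fold change 1.02, adjusted P = 1.39e-09), Ly6a 1.99-fold (0.99, adjusted P = 6.51e-07) and Pi16 2.40-fold (1.27, adjusted P = 4.84e-06). Hic1 and Osr1 had log2 fold changes of 0.25 and 0.21 (adjusted P = 0.0374 and 0.0408), and both lost the call in 8 and 7 of the 8 fits without 1 library, Osr1 keeping it only without spironolactone 2_2. With the limit of log2 fold change, Pdgfra and Pi16 passed, against 1.38% of all genes, and Ly6a fell just short of it. None of the 10 passed it downward, against 0.521% of all genes.

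Dpp4 showed no call against spironolactone, with a log2 fold change of -0.75 (95% interval -1.50 to -0.0033, adjusted P = 0.264 in limma, unadjusted P = 0.0491). Spironolactone libraries of Dpp4 averaged 32.0 ± 10.5 normalized counts, between 48.6 ± 12.7 with vehicle and 19.4 ± 8.95 with aldosterone. Cd34 had a log2 fold change of 0.42 (adjusted P = 0.0567, and 2.13e-07 when blocked by sample number) and Thy1 one of -0.23 (adjusted P = 0.451, and 0.000742 with the block). With the block 6 genes were higher and 1 was lower, against 7.58% and 6.8% of all genes at any level.

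Spironolactone was included in the study to control for the removal of steroids from the medium. None of the 10 genes differed from vehicle in limma, edgeR or DESeq2, and limma called 0 of 27598 genes (0%), with 1251 at an unadjusted P under 0.05. On the reads recovered from the tables, edgeR called 0 genes and DESeq2 called 13. When blocked by sample number, limma called 63 genes higher and 34 lower, 0.228% and 0.123% of all genes, and still 0 of the 10 identity genes, of which the lowest adjusted P was that of Dpp4 (0.476). Without the block, Dpp4 was the only identity gene with an unadjusted P under 0.05 in limma. Its log2 fold change was -0.60 (95% interval -1.17 to -0.03, adjusted P = 0.934). The intervals of the other 9 genes without the block lay between -0.32 and 0.35, and that of Pdgfra was -0.23 to 0.018. With the block, the intervals of Pdgfra (-0.195 to -0.0169) and Tcf7l2 (-0.259 to -0.0137) also lay below 0. Neither was called in that limma fit (adjusted P = 0.514 and 0.568). The data thus bound a difference in these genes without showing that the groups are alike.

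The identity genes also differed between the sample numbers. Over 12 libraries with treatment in the fit, 4 genes were higher and 3 lower in sample number 2 than in sample number 1, against 6.09% and 6.99% of all 25133 genes. Thy1 had the lowest adjusted P, at 2477 to 3106 normalized counts in the 6 libraries of number 1 and 1637 to 2127 in those of number 2, without overlap across treatments. Its log2 difference was -0.50 (SE 0.038, adjusted P = 3.21e-11 in limma). Pdgfrb ranged from 10158 to 11750 in number 1 and from 8561 to 10155 in number 2 (log2 difference -0.23, adjusted P = 5.44e-06 in limma). These 2 ranges nearly met. On the scale of the aldosterone and vehicle libraries alone, aldosterone 1_2 and vehicle 2_2 both rounded to 10030.

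Cd34 differed in the opposite direction, with a log2 difference of 0.48 (adjusted P = 7.48e-10), and so did Dpp4, with 0.79 (SE 0.205, adjusted P = 0.00811). Within each treatment every library of number 2 was above every library of number 1 for both genes. Ly6a was lower in number 2 (log2 difference -0.31, adjusted P = 1.00e-07). Smaller differences were called for Hic1 (0.15, adjusted P = 0.0304) and Pdgfra (0.11, adjusted P = 0.033), which lost the call in 6 and 7 of the 12 fits without 1 library. Pi16, Osr1 and Tcf7l2 were not called, with 95% intervals of -0.17 to 0.27, 0.0061 to 0.18 and -0.07 to 0.15.

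**Figure D4:**
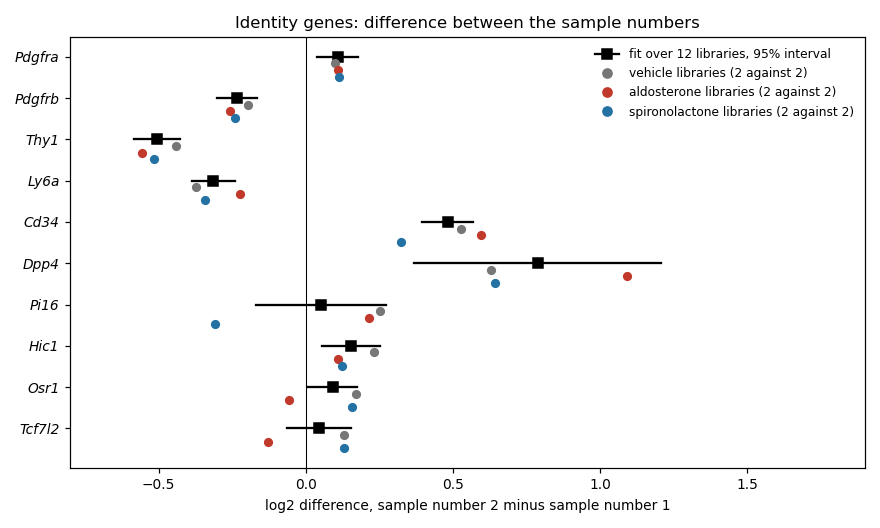
Log2 difference of each identity gene between sample number 2 and sample number 1, as the fit over 12 libraries with its 95% interval (squares and lines) and within each treatment (colored points). Thy1 lies between -0.56 and -0.44 and Cd34 between 0.32 and 0.60 in the 3 treatments.

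Some markers of other cells also differed between the sample numbers. Of 6 mural markers, 4 were lower and 0 higher in number 2, against 6.99% and 6.09% of all genes. Their summed level was 388.7 to 538.1 CPM in number 1 and 310.4 to 453.6 CPM in number 2. Among them Rgs5, a pericyte gene, had means of 251.6 and 126.2 normalized counts in numbers 1 and 2. All 3 adipocyte markers were higher in number 2, with a summed level of 1.24 to 5.33 CPM in number 1 and 3.87 to 9.37 CPM in number 2. Of 7 fibroblast markers, 3 were higher and 1 lower in number 2, and of 3 tenocyte markers 1 was higher and 1 lower. The myogenic and endothelial lists each held 1 lower marker and 0 higher. Schwann and glial markers held 1 higher and 0 lower, and 0 macrophage and leukocyte markers were called. The part of these markers in the differences of Pdgfrb, Thy1 and Cd34 was not tested.

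Finally, the genes that accompany Pi16 and Dpp4 in vessel-associated fibroblasts were compared with those of the Col15a1-positive parenchymal fibroblasts. Of 15 genes of the vessel-associated state, 4 rose and 2 fell with aldosterone, against 5.68% and 4.74% of all genes. Their median log2 fold change was 0.12, against -0.01 over all genes. The most significant were Ly6c1, already described, Sema3c, a secreted guidance factor, with -1.01 (adjusted P = 2.59e-07), Cd55, a complement inhibitor, with -0.83 (adjusted P = 2.94e-07), and Procr, the protein C receptor, with 0.48 (adjusted P = 0.00159). Sema3c and Cd55 fell, as Dpp4 did, while Ly6c1 and Procr rose, as Pi16 did.

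Of 13 parenchymal genes, 3 rose and 4 fell, against the same 5.68% and 4.74% of all genes (median log2 fold change -0.07). The basement membrane collagens Col4a1 and Col4a2 rose by 0.88 and 0.79 (adjusted P = 4.99e-08 and 1.72e-07 in limma). Gdf10 and Vcam1 had log2 fold changes of -0.59 and -0.57 (adjusted P = 0.00047 and 0.00202). Penk and Cxcl14 fell further, by log2 fold changes of -1.17 and -1.15, and were the 2 called genes of the list past the limit on fold change. When blocked by sample number, limma gave them adjusted P = 6.53e-17 and 7.34e-18. That blocked fit gave Col4a1 and Col4a2 adjusted P = 5.86e-16 and 1.14e-14, and Gdf10 and Vcam1 6.82e-07 and 7.59e-10. Values with the block are not to be set against those without it. Neither list moved in a single direction. When blocked by sample number, 5 vessel-associated genes rose and 4 fell, and 5 parenchymal genes rose and 6 fell. Of all genes, 8.68% rose and 8.02% fell with that block. Between sample numbers, 1 vessel-associated gene was higher and 6 were lower in number 2, while 7 parenchymal genes were higher and 2 lower. Of all genes, 6.09% were higher and 6.99% lower in number 2.

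**Figure D5:**
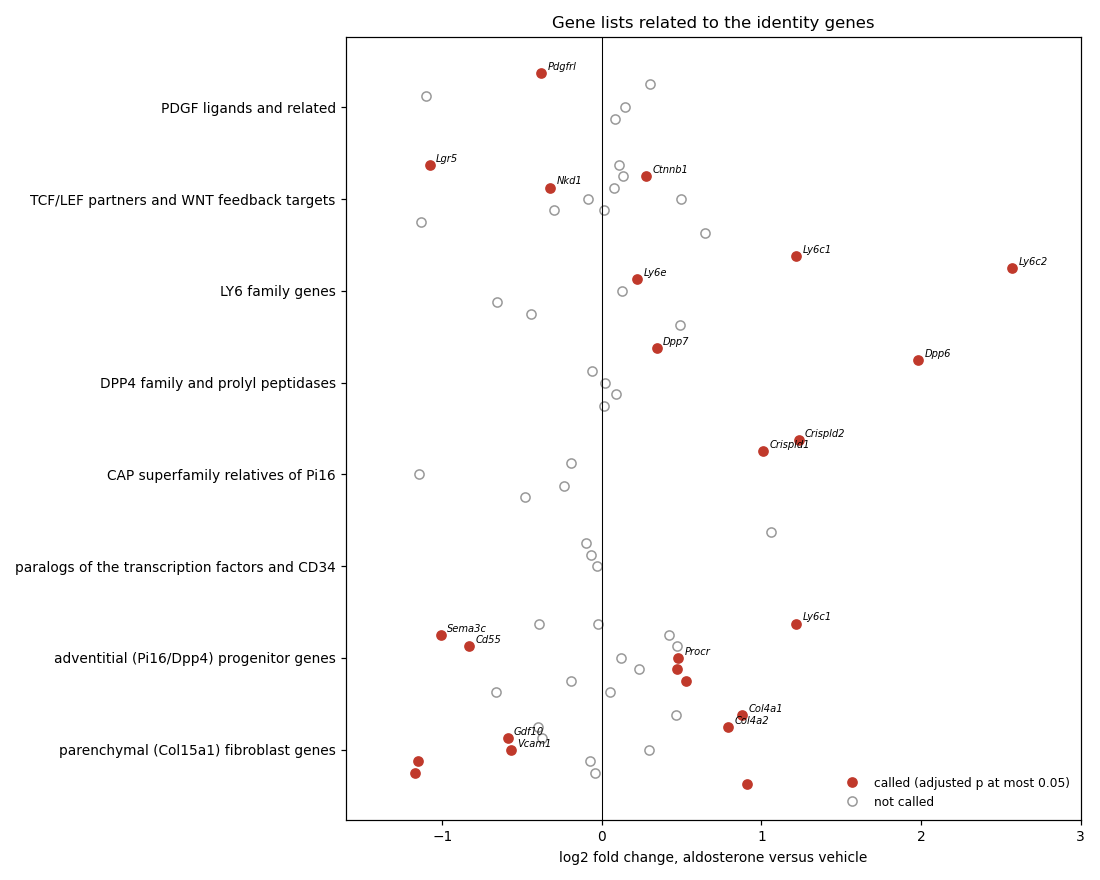
Log2 fold changes between aldosterone and vehicle for every listed gene of 8 related gene lists, filled where the gene was called and named for up to 4 called genes a list (adventitial means vessel-associated). The fitted values of Ly6c2 and Dpp6 rest on means under 10 normalized counts. The LY6 and CAP relatives hold called genes above 1, while the vessel-associated and parenchymal lists hold called genes on both sides of 0.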

How the data were processed

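Poly(A) RNA of 12 fibroblast libraries was sequenced, 4 for each treatment. Per the labels, the submitters' processing notes name HISAT2 2.0.5, featureCounts 1.5.0-p3 and the build mm39, while the study's methods name mm9. The gene positions in the files matched neither NCBIM37 nor GRCm38.p6 for any of the 10 genes and are printed as the files give them. Whether libraries were counted by strand is not given in the sources used here. The authors deposited 3 tables, 1 for every treatment pair, whose values are a signal, namely the read count of a gene after division by the library's size factor. The same tables hold the authors' fold changes and p-values, which were not used. Every value was a whole multiple of 1 step per column, the worth of 1 read (100% within 0.01), so the reads were recovered. They did not differ for any gene in the 10 libraries recovered from 2 tables.

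Each table was fitted whole with limma 3.58.1 (R 4.3.3) on log2(value + 1) with a trended prior variance and without a block, where the study used DESeq2, since the deposited values are not counts. P-values were adjusted by Benjamini-Hochberg over the table. Sample numbers were compared over the 25133 genes listed in all tables, with treatment as a term. Single ratios were compared by two-sided exact permutation tests. Alternatives used edgeR 4.0.16 and DESeq2 1.42.0 on the recovered reads, other scalings, filters, blocks and single libraries left out. The tests were checked on simulated data with independent libraries and no difference between sample numbers. That check therefore does not cover plates that share a mouse.

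Libraries of the same sample number deviated together (correlation of deviations from group means 0.134 to 0.283 over 24 pairs of libraries from different treatments), and those of the same biological replicate number did not (mean -0.00547, from -0.302 to 0.283), so the sample number was used as the block. The pairing comes from the number in the sample titles, and values with it stand beside a result between treatments where they change a count of calls. No libraries were duplicates.

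The identity genes and lists were chosen with earlier results of these data known, and the level of 100 normalized counts for a second share of called genes was added after seeing the data. All 10 genes are named. Of each list, the counts and at most the 4 genes with the smallest adjusted P between aldosterone and vehicle are named, plus ligands, paralogs or partners of a called gene. Kdr, Cspg4, Rgs5, Apcdd1, Penk and Cxcl14 are named after their values were seen. For the genes with the highest and lowest fold change, the 3 closest profiles are named. The depth gives counting error only, which is largest for Dpp4.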

Additional observations from a re-analysis of the deposited data

Results flagged for a closer look

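Of 30 groups of 4 libraries (10 genes in 3 treatments), 1 held a library far from the others, where chance flags about 1 in 20. Hic1 in aldosterone library 2_1 had 963.1 normalized counts against 823.2 to 831.3 in the other 3, and the gap was 0.942 of the range of the group. Without that library the log2 fold change of Hic1 against vehicle was 0.22 (adjusted P = 0.174 in limma).

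Cd34 differed between spironolactone and vehicle in opposite directions in the sample numbers. The log2 difference was 0.110807 in sample number 1, where both spironolactone libraries (1493 and 1566 normalized counts) lay above both vehicle libraries (1421 and 1416), and -0.0930637 in sample number 2, where both (1855 and 1977) lay below (2032 and 2057). The difference between the sample numbers was not tested. Pi16 had a wider split in this comparison, at 0.299 in sample number 1 and -0.264 in sample number 2. Its spironolactone and vehicle libraries overlapped in number 2.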

How the results depend on the processing

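Pdgfra, Ly6a and Pi16 kept their call in each of the 18 alternatives against vehicle and in each of the 18 against spironolactone. Of 750 values of single genes over all comparisons and alternatives, 660 kept their direction, where called, and their side of the threshold, 80 lost a call, 10 gained one and 0 reversed. Scaling by TMM, a pseudocount of 0.5, a mean of at least 10, edgeR, DESeq2 and 1 fit of all 12 libraries left the number of called genes as it was in the 3 comparisons of treatments.

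Under a replicate block by sample number, the number of genes that fell against vehicle went from 1 to 3, and against spironolactone from 0 to 1, also when the libraries of a sample number were summed. Summed without a block, 3 rose and 0 fell against vehicle, and 3 rose against spironolactone. The biological replicate number as a replicate block gave 3 that rose against spironolactone. The sample number as a block changed no other call of the 10 genes than those given beside Pdgfrb, Cd34 and Thy1. A log2 fold change of at least 1 left 2 that rose in either comparison with aldosterone.

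Leaving out single libraries gave 3 to 4 genes that rose and 0 to 1 that fell against vehicle, 3 to 4 that rose and 0 that fell against spironolactone, and 2 to 4 higher and 3 lower in sample number 2. Each treatment by itself (2 libraries against 2) called 0 genes in either direction between sample numbers. A fit without a treatment term called 1 higher, Cd34, and still called Pdgfrb and Thy1 lower. The limit on fold change left 0 higher and 0 lower. Fewer libraries or degrees of freedom enter the fits without a library. The cause of the other changes was not tested. Depth limits Dpp4, with as few as 8 reads in a library.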
